A study of Homo sapiens with 18 samples.

Results

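The genes of major histocompatibility complex (MHC) class I antigen presentation were followed in 3 Ewing sarcoma cell lines before and after depletion of the EWSR1::FLI1 fusion. The set has 9 members, HLA-B, HLA-C, HLA-E, B2M, TAP1, TAP2, PSMB8, PSMB9 and NLRC5. They were chosen by gene symbol from the 58381 rows of each count table, and all 9 were found and passed the filter on low counts in every line. RNA sequencing of messenger RNA libraries was carried out on TC-32, TC-71 and A673, established lines of Ewing sarcoma, a cancer that arises in bone or soft tissue. Cells received a small interfering RNA (siRNA) against FLI1 (siFLI1), whose target sequence the fusion transcript also carries, or a negative control (siNeg), each at 20 nM by reverse transfection. Each of the 6 groups holds 3 libraries, 18 in all. Per the labels, TC-32 and TC-71 were grown in an RPMI medium and A673 in DMEM, both with serum. The column names give 48 h for TC-32 and TC-71 and no time for A673. Medium, count table and line therefore cannot be told apart. Nothing in the labels says that replicates came from separate cultures, so the p-values measure the spread between these libraries, which may be technical.

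Class I molecules carry peptides made inside the cell to its surface, where CD8 T cells read them and natural killer cells sense their absence. A polymorphic heavy chain, such as HLA-B or HLA-C, pairs with the light chain beta-2-microglobulin, encoded by B2M, and takes up a peptide that the proteasome has cut and the TAP1-TAP2 transporter has moved into the endoplasmic reticulum. Interferon raises the whole pathway, in part by exchanging the catalytic subunits of the constitutive proteasome for those of the immunoproteasome (PSMB8, PSMB9 and PSMB10), and NLRC5 is the transactivator that acts on class I promoters. Ewing sarcoma is known for low and variable class I levels.

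The promoters of the members were searched for sites of the factors known to act on class I genes. The 250 bases before the canonical start were read from RefSeq (GRCh38.p14), where 7 of the 9 members were matched, all but HLA-E and NLRC5. The 5 windows printed are those of the heavy chains HLA-B and HLA-C, which responded by different amounts, of B2M, and of both transporter chains. HLA-B is at chr6:31357180-31357429 (minus strand), HLA-C at chr6:31272093-31272342 (minus strand), B2M at chr15:44711267-44711516 (plus strand), TAP1 at chr6:32853705-32853954 (minus strand) and TAP2 at chr6:32838740-32838989 (minus strand). Capitals mark every match, on either strand, to a kappaB-like site, the core of an interferon-stimulated response element, TTCNNNGAA (the core of a gamma-activated site), TGACG (an X2-type box), CCAAT (a Y box) or GGAAGGAA (a pair of ETS cores). The windows are read 5′ to 3′ on the strand of the gene.
HLA-B: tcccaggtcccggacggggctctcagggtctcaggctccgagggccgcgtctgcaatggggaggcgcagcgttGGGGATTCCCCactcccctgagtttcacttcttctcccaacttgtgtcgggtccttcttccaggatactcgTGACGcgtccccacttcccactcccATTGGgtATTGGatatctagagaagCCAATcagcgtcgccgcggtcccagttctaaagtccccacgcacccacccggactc
HLA-C: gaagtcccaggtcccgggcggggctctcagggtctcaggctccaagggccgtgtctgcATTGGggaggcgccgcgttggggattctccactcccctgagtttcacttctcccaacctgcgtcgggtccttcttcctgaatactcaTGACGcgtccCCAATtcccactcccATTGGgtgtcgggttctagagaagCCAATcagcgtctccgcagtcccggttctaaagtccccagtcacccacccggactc
B2M: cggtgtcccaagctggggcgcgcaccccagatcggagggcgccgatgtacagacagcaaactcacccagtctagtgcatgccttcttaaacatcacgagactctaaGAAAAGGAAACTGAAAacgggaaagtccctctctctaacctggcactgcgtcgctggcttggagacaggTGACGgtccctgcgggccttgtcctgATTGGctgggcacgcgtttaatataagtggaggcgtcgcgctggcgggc
TAP1: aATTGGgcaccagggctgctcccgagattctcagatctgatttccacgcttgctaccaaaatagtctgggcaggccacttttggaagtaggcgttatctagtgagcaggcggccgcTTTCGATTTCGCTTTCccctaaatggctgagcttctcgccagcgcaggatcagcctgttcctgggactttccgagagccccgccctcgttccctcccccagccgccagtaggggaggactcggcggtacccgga
TAP2: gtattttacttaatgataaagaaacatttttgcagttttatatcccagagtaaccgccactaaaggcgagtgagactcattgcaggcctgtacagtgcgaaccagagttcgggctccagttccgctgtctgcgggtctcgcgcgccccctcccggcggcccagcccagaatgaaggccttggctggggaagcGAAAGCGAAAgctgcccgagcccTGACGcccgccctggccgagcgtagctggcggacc
The kappaB-like letters were found in HLA-B alone of the 7 windows, and in 0.367% of 35116 promoters of the same length. That set leaves out the promoters of a chromosome that holds no member. In HLA-B they overlap on both strands, between 177 and 167 bases before the start. The response element core was found in 3 of 7 members, B2M, TAP1 and TAP2, against 3.02% of those 35116 promoters. It occurred as an overlapping pair in B2M and in TAP1. TGACG was found in 5 of 7, against 21.2% of the same promoters, in HLA-B, HLA-C, B2M, TAP2 and PSMB9. CCAAT was also found in 5 of 7, against 32%, in HLA-B, HLA-C, B2M, TAP1 and PSMB9. The windows of TAP1 and PSMB9 overlap, and their CCAAT matches are the same bases read on opposite strands. The gamma-activated core was found in PSMB8 alone, against 6.57%, and the ETS pair in 0 of 7, against 3.06%. TAP1 and PSMB9 are transcribed away from each other from starts 487 bases apart. A match is a match of letters only. Looser forms of these sites were not searched, so a window without a match may still hold one.

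The depth of the A673 libraries, 114564479 to 120993595 total counts, was well above that of TC-32 (24102487 to 33669271) and TC-71 (19685354 to 37234528). FLI1, the target of the siRNA, fell by 2.09 on the log2 scale in A673, by 1.47 in TC-71 and by 1.03 in TC-32 (adjusted p = 1.95e-16, 8.88e-18 and 1.81e-13 by edgeR). Of 6 Ewing sarcoma markers, CD99 was listed at 0 in all TC-71 libraries, in both of its rows, the X-linked and the Y-linked copy. In TC-32 and A673 the 2 rows of CD99 held equal expected counts, from 3786 to 5102.5 and from 26319 to 44832. TC-71 was counted by another tool, so genes with near-identical copies or shared exon bases can be counted differently there. This bears on the HLA heavy chains and on members whose exons overlap other genes. Of 9 leukocyte markers, 5 to 7 held at most 3 counts in every library of each TC-32 and TC-71 group, and CD3E, CD2 and MS4A1 were at 0 in all A673 libraries. Their summed level was 1.88 to 3.43 CPM (counts scaled to library depth, TMM-adjusted within a line) under siNeg and 8.09 to 10.6 under siFLI1 in TC-32, 1.15 to 1.32 and 0.982 to 1.38 in TC-71, and 6.54 to 8.02 and 11.9 to 13.2 in A673. ITGAM and CD68 rose in TC-32, and CD14 and CD68 in A673. CD68 alone supplied most of these sums in both lines, with 7.01 to 8.94 CPM under siFLI1 in TC-32 and 11.5 to 12.7 in A673. It shares 81.6% of its exon bases with other genes of its own strand. The part of these markers in the results below was not tested.

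Fusion depletion moved the class I genes by line. In TC-32 and in A673 most members rose, led by PSMB9, TAP1 and HLA-B in TC-32 and by HLA-B and NLRC5 in A673. B2M fell in A673, and in TC-32 its small fall depended on the scaling. In TC-71, HLA-B and TAP2 fell, NLRC5 and PSMB8 rose from very low levels, and HLA-C, HLA-E, B2M and PSMB9 did not pass the test. TAP1, PSMB8 and NLRC5 were the members that rose in all 3 lines, and no member fell in all 3. By edgeR at an adjusted p under 0.05, 9 of 9 members were called in TC-32 (7 higher, 2 lower), where 81.4% of 16227 genes tested were called, 41.3% higher and 40.1% lower. In TC-71, 5 of 9 were called (3 higher, 2 lower), against 71.9% of 17085 genes, 36.8% higher and 35% lower. In A673, 9 of 9 were called (8 higher, 1 lower), against 71% of 18444 genes, 35.6% higher and 35.4% lower. A call is therefore common in every line, and direction and size say more than the count. The median log2 fold change of the members was 0.42 in A673, 0.07 in TC-71 and 0.58 in TC-32, beside medians over all genes tested of -0.01, 0.02 and 0.02. The siRNA groups did not overlap for 9 members of TC-32 (82.6% of the genes tested), 5 of TC-71 (73.8%) and 9 of A673 (73.6%). In bulk samples such as these, fewer cells that express a gene and less RNA per cell cannot be told apart.

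**Figure D1:**
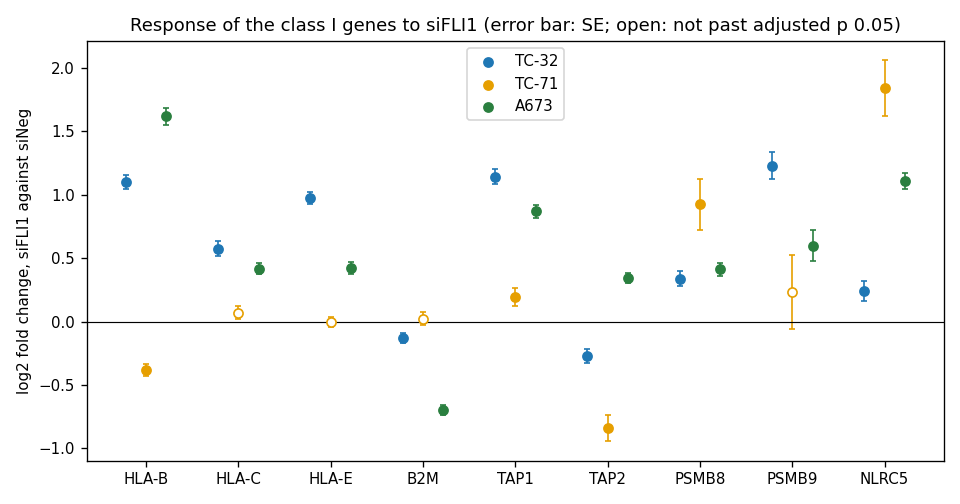
Log2 fold change of siFLI1 against siNeg (y axis) for the 9 members (x axis) in 3 lines, with 3 libraries per siRNA. Bars are standard errors, and open points did not pass an adjusted p of 0.05. HLA-B lies above 0 in TC-32 and A673 and below 0 in TC-71, and TAP2 lies above 0 in A673 only.

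Heavy chains were taken first. HLA-B (ENSG00000234745.10 in the tables) lies on chromosome 6 from 31353872 to 31367067 on the minus strand of GRCh38 (GENCODE release 44), and its protein presents peptides to CD8 T cells. In TC-32 the 3 siNeg libraries held 176, 162 and 178 CPM of HLA-B and the 3 siFLI1 libraries 338, 405 and 364. Every siFLI1 library was above every siNeg library, and the mean rose from 172 ± 8.80 to 369 ± 33.9 CPM (SD, n = 3), a log2 fold change of 1.10 (SE 0.0581, adjusted p = 6.28e-12 by edgeR). In A673 the libraries held 5.19, 5.21 and 4.74 CPM under siNeg and 14.7, 16.6 and 15.3 under siFLI1. The groups did not overlap, and HLA-B rose by 1.62 on the log2 scale (SE 0.0672, adjusted p = 2.10e-12 by edgeR), from the lowest HLA-B level of the 3 lines. In TC-71 it went the other way, from 148, 145 and 148 CPM to 116, 113 and 109. There HLA-B fell by 0.38 on the log2 scale (SE 0.0447, adjusted p = 9.27e-09 by edgeR), again with no overlap. HLA-B overlaps genes of the opposite strand over 14.8% of its exon bases and others of its own strand over 32.7%.

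HLA-C (ENSG00000204525.16, chromosome 6 from 31268749 to 31272130, minus strand) encodes a classical heavy chain that killer-cell immunoglobulin-like receptors also recognise. In TC-32 it read 79.7, 77.3 and 83.3 CPM under siNeg and 109, 132 and 116 under siFLI1. In A673 it read 89.1, 85.3 and 91.0 under siNeg and 111, 125 and 118 under siFLI1. The siRNA groups were apart in both lines, and HLA-C rose by a log2 fold change of 0.57 in TC-32 (SE 0.0605, adjusted p = 1.54e-08 by edgeR) and 0.42 in A673 (SE 0.0455, adjusted p = 4.70e-07 by edgeR). In TC-71 the values, 61.0, 62.8 and 64.9 against 65.7, 67.7 and 64.7 CPM, overlapped, and the log2 fold change of 0.07 (SE 0.0515) did not pass the test (adjusted p = 0.230 by edgeR).

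HLA-E (ENSG00000204592.8, chromosome 6 from 30489509 to 30494194, plus strand) encodes a heavy chain of low polymorphism that presents leader peptides of other class I chains to the NKG2A receptor. TC-32 held 73.7, 71.7 and 74.7 CPM of HLA-E under siNeg and 139, 150 and 144 under siFLI1, a rise of 0.98 on the log2 scale (SE 0.0476, adjusted p = 1.52e-15 by edgeR) with no overlap. A673 held 44.4, 41.8 and 42.9 CPM and then 54.6, 58.6 and 59.8, a rise of 0.42 (SE 0.0455, adjusted p = 4.26e-07 by edgeR), also with no overlap. TC-71 started highest, at 165, 161 and 165 CPM, and read 163, 166 and 160 under siFLI1. Its siRNA groups overlapped and the log2 fold change was -0.00 (SE 0.0426, adjusted p = 0.954 by edgeR).

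The heavy chain genes resemble each other closely, so reads can be split between their rows, and the part of this in the values was not tested. Among the counts of HLA-B and HLA-C together, HLA-B made up 68.2% ± 0.575 under siNeg and 75.6% ± 0.202 under siFLI1 in TC-32 (SD, n = 3). In TC-71 its share dropped from 70.0% ± 0.703 to 63.1% ± 0.763. In A673, where HLA-C supplied nearly all of these counts, the share of HLA-B went from 5.40% ± 0.410 to 11.6% ± 0.164. The siRNA groups did not overlap in any of the 3 lines.

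B2M (ENSG00000166710.17, chromosome 15 from 44711358 to 44718851, plus strand) encodes the light chain that every class I heavy chain needs to reach the surface. Its response was unlike that of the 3 heavy chains in A673 and TC-32, while in TC-71 it was not called, like HLA-C and HLA-E. In A673 it read 996, 975 and 1006.7 CPM under siNeg and 644, 578 and 619 under siFLI1, with no overlap, and it fell by 0.69 on the log2 scale (SE 0.0394, adjusted p = 1.29e-10 by edgeR). In TC-32 it read 691, 711 and 644 CPM against 630, 605 and 639. The lowest siNeg library was barely above the highest siFLI1 library, and the fall of 0.13 (SE 0.0409, adjusted p = 0.00638 by edgeR) did not pass when libraries were scaled by total count alone (-0.08, adjusted p = 0.0704 by edgeR). On the scale of counts per base of exon, used further on for levels, B2M in TC-32 was at 731 ± 35.2 under siNeg and 737 ± 31.8 under siFLI1 (SD, n = 3), with overlapping libraries and no fall. In TC-71 the values of 311, 303 and 272 against 299, 284 and 318 CPM overlapped (log2 fold change 0.02, SE 0.0496, adjusted p = 0.684 by edgeR).

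**Figure D2:**
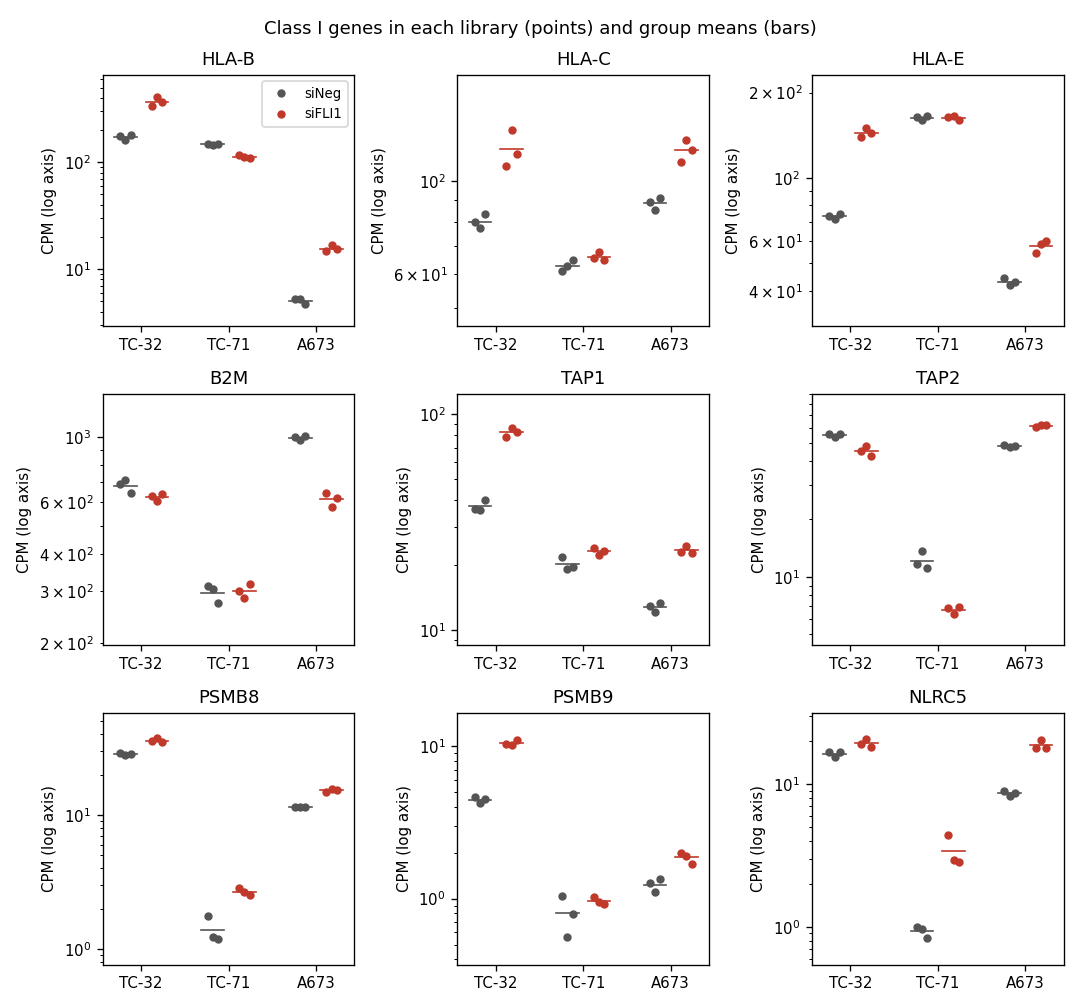
CPM of each member (y axes, log scale) in each of the 18 libraries, by line and siRNA (x axis), with 1 point per library. HLA-B of A673 stays under 17 CPM in all 6 libraries, while TC-32 and TC-71 stay above 100.

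Peptide supply was followed through the transporter. TAP1 (ENSG00000168394.11, chromosome 6 from 32845209 to 32853816, minus strand) and TAP2 (ENSG00000204267.13, chromosome 6 from 32821833 to 32838739, minus strand) encode the chains of a heterodimer that pumps peptides into the endoplasmic reticulum. TAP1 rose in TC-32 from 36.4, 36.0 and 40.1 to 78.2, 86.8 and 83.1 CPM, a log2 fold change of 1.14 (SE 0.0589, adjusted p = 4.75e-15 by edgeR). It rose in A673 from 12.9, 12.2 and 13.3 to 23.1, 24.4 and 22.7 CPM, a log2 fold change of 0.87 (SE 0.0531, adjusted p = 3.28e-10 by edgeR). Neither line showed overlap of the siRNA groups. In TC-71, TAP1 read 21.8, 19.1 and 19.7 CPM against 23.9, 22.2 and 23.4, a small separation with a log2 fold change of 0.19 (SE 0.0738, adjusted p = 0.0201 by edgeR). That call was lost without siNeg replicate 2 (0.15, adjusted p = 0.108 by edgeR), without siNeg replicate 3 (0.16, adjusted p = 0.0815 by edgeR) or without siFLI1 replicate 1 (0.17, adjusted p = 0.0527 by edgeR). TAP1 shares 14.2% of its exon bases with PSMB8-AS1 on the opposite strand.

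TAP2 did not follow its partner. In TC-32 it fell from 55.7, 53.8 and 55.6 to 45.6, 48.3 and 42.7 CPM, by 0.27 on the log2 scale (SE 0.0577, adjusted p = 0.000146 by edgeR). In TC-71 it fell from 11.7, 13.6 and 11.1 to 6.83, 6.39 and 6.92 CPM, by 0.84 (SE 0.103, adjusted p = 2.25e-08 by edgeR). In A673 it rose from 48.99, 47.5 and 48.1 to 60.5, 61.8 and 61.7 CPM, a log2 fold change of 0.35 (SE 0.0389, adjusted p = 6.57e-07 by edgeR). The siRNA groups were apart in all 3 lines, so A673 was the line in which both transporter chains rose. TAP2 shares 19.5% of its exon bases with another gene on its own strand.

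The immunoproteasome subunits came next. PSMB8 (ENSG00000204264.8, chromosome 6 from 32840717 to 32844679, minus strand) replaces PSMB5, and PSMB9 (ENSG00000240065.7, chromosome 6 from 32844136 to 32859851, plus strand) replaces PSMB6, in the catalytic core. PSMB8 read 28.8, 27.8 and 28.4 CPM in TC-32 under siNeg and 35.4, 37.2 and 34.8 under siFLI1, a rise of 0.34 on the log2 scale (SE 0.0619, adjusted p = 2.33e-05 by edgeR). In A673 it went from 11.4, 11.5 and 11.5 to 14.8, 15.6 and 15.4 CPM, a rise of 0.41 (SE 0.0515, adjusted p = 2.27e-06 by edgeR). In TC-71 PSMB8 was far lower, at 1.75, 1.22 and 1.18 CPM, and reached 2.82, 2.64 and 2.51 CPM, a rise of 0.93 (SE 0.201, adjusted p = 0.000161 by edgeR). No line showed overlap. The TC-71 values rest on 24 to 47 counts per library under siNeg and 69 to 93 under siFLI1, and PSMB8 overlaps PSMB9 and PSMB8-AS1, on the opposite strand, over 17.3% of its exon bases.

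PSMB9 rose in TC-32 from 4.65, 4.26 and 4.46 to 10.3, 10.2 and 10.9 CPM, a log2 fold change of 1.23 (SE 0.106, adjusted p = 1.25e-10 by edgeR) and the largest of the members in that line. In A673 it rose from 1.26, 1.10 and 1.34 to 2.00, 1.91 and 1.70 CPM, a log2 fold change of 0.60 (SE 0.122, adjusted p = 0.000351 by edgeR). Both lines showed no overlap between the siRNAs. In TC-71 it read 1.04, 0.558 and 0.798 CPM against 1.02, 0.956 and 0.916, on 11 to 34 counts per library. Those groups overlapped, and the log2 fold change of 0.23 (SE 0.293) did not pass the test (adjusted p = 0.482 by edgeR).

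Set against the constitutive subunits per exon length, the immunoproteasome subunits stood higher in every siFLI1 library than in any siNeg library of the same line. PSMB8 made up 9.01% ± 0.191 of the level of PSMB5 in TC-32 under siNeg and 20.4% ± 1.11 under siFLI1 (SD, n = 3). In A673 the same ratio went from 1.51% ± 0.0458 to 2.69% ± 0.0958, and in TC-71 from 0.172% ± 0.0339 to 0.436% ± 0.0136. PSMB9 relative to PSMB6 reached 9.63% ± 0.617 in TC-32, after 1.65% ± 0.155 under siNeg. It went from 0.300% ± 0.0315 to 0.652% ± 0.0877 in A673 and from 0.132% ± 0.0345 to 0.195% ± 0.00157 in TC-71. PSMB5, PSMB6 and PSMB7, the denominators of such ratios, fell in each line, and PSMB9 itself was not called in TC-71. Their log2 fold changes were -0.83, -1.32 and -0.88 for TC-32, -0.40, -0.28 and -0.30 for TC-71, and -0.41, -0.51 and -0.13 for A673. Of 14 genes of the constitutive core, 14 fell in TC-32 and 10 in TC-71, while 11 fell and 1 rose in A673, and the median changes were -0.91, -0.22 and -0.19.

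**Figure D3:**
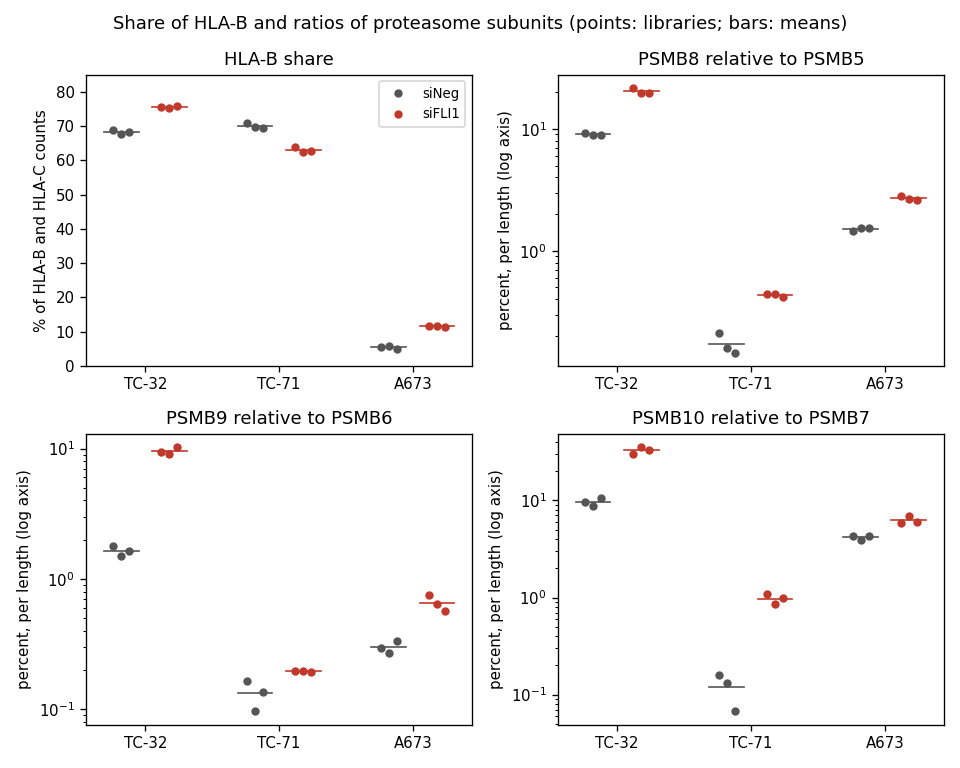
Share of HLA-B in the summed counts of HLA-B and HLA-C, and ratios of immunoproteasome to constitutive subunits per exon length (y axes, percent), by line and siRNA (x axis), with 1 point per library. HLA-B holds 5.40% of these counts in A673 under siNeg and 11.6% under siFLI1, and the ratio of PSMB9 to PSMB6 in TC-32 goes from 1.65% to 9.63%.

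NLRC5 (ENSG00000140853.15, chromosome 16 from 56989485 to 57083531, plus strand) encodes the transactivator of class I promoters. Its action on the other members was not tested. In A673 it read 9.02, 8.26 and 8.68 CPM under siNeg and 17.8, 20.4 and 17.9 under siFLI1, a rise of 1.11 on the log2 scale (SE 0.0643, adjusted p = 1.64e-10 by edgeR). In TC-71 it rose from 1.00, 0.963 and 0.833 to 4.38, 2.95 and 2.86 CPM, a log2 fold change of 1.84 (SE 0.222, adjusted p = 1.50e-08 by edgeR). Neither line showed overlap, and the TC-71 rise, the largest of the members there, started from 19 to 27 counts per library. In TC-32, where NLRC5 was highest, it read 16.9, 15.4 and 16.7 CPM against 19.2, 20.6 and 18.1. The log2 fold change of 0.24 (SE 0.0781, adjusted p = 0.00642 by edgeR) was not past the threshold without siNeg replicate 2 (0.19, adjusted p = 0.0563 by edgeR). The lines thus ranked TC-71, A673, TC-32 by the response of NLRC5 and A673, TC-32, TC-71 by that of HLA-B.

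Whether the lines differed in their response was tested by interaction contrasts over the 18 libraries. TC-32 differed from TC-71 in 9 of 9 members (53.6% of 19610 genes tested were called), A673 from TC-71 in 8 of 9 (51.6%), and TC-32 from A673 in 8 of 9 (62.1%). The differences for HLA-B were 1.48 between TC-32 and TC-71 (SE 0.0743, adjusted p = 4.71e-18 by edgeR) and 1.97 between A673 and TC-71 (SE 0.0827, adjusted p = 3.60e-20 by edgeR), in log2 units. For B2M the response of A673 was lower than that of TC-32 by 0.59 (SE 0.0668, adjusted p = 2.61e-09 by edgeR). For TAP2 it was higher than that of TC-71 by 1.15 (SE 0.0951, adjusted p = 1.86e-12 by edgeR). For NLRC5 the response of TC-32 was lower than that of TC-71, with a difference of -1.60 (SE 0.217, adjusted p = 9.30e-08 by edgeR), and lower than that of A673, with a difference of -0.84 (SE 0.116, adjusted p = 9.11e-08 by edgeR). The pairs that did not pass were PSMB8 between TC-32 and A673 (-0.05, SE 0.0869, adjusted p = 0.652 by edgeR) and PSMB9 between A673 and TC-71 (0.34, SE 0.267, adjusted p = 0.306 by edgeR).

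Some of these calls were fragile. B2M between TC-32 and TC-71 (-0.16, adjusted p = 0.0489 by edgeR) kept its call under 6 of 21 alternatives (highest adjusted p 0.339, by DESeq2). The median over all genes tested was itself -0.11 for that pair of lines. HLA-C between TC-32 and A673 (0.18, adjusted p = 0.0357 by edgeR) was lost when only those lines were fitted (0.11, adjusted p = 0.231 by edgeR) and without any one of 7 libraries, TC-32 siFLI1 replicate 2 giving the smallest value (0.11, adjusted p = 0.176 by edgeR). PSMB8 between A673 and TC-71 (-0.54, adjusted p = 0.00606 by edgeR) was lost without TC-71 siNeg replicate 3 (-0.43, adjusted p = 0.0585 by edgeR).

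At baseline, under siNeg, the widest gaps between lines among the members were those of HLA-B, PSMB8 and NLRC5. HLA-B was 33.2-fold higher in TC-32 than in A673 (log2 difference 5.05, SE 0.0643, adjusted p = 8.38e-36 by edgeR) and 22.1-fold lower in A673 than in TC-71 (-4.47, SE 0.0636, adjusted p = 8.16e-35 by edgeR). HLA-C, its neighbour in the same locus, showed no such gap, with a difference of -0.18 between TC-32 and A673 (SE 0.0539, adjusted p = 0.00303 by edgeR). PSMB8 was 26.0-fold higher in TC-32 than in TC-71 and 10.8-fold higher in A673 than in TC-71 (adjusted p = 1.74e-29 and 2.66e-25 by edgeR). NLRC5 was 22.4-fold higher in TC-32 and 12.2-fold higher in A673 than in TC-71 (adjusted p = 1.80e-24 and 7.75e-22 by edgeR). TC-71 was thus the line lowest in HLA-C, B2M, TAP2, PSMB8, PSMB9 and NLRC5, and the highest in HLA-E, which was 1.74-fold higher there than in TC-32 and 2.88-fold higher than in A673. All 9 members were called in each pair of lines, against 85.8% of 19610 genes for A673 with TC-71, 81.5% for TC-32 with TC-71 and 74.4% for TC-32 with A673.

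These baseline values compare libraries of different tables, and TC-71 was counted by another tool. In the constitutive core, PSMA1, PSMA2 and PSMA6 share 26.7%, 17.2% and 14.1% of exon bases with genes of their own strand. They read 10.5-fold, 43.9-fold and 7.32-fold higher in TC-32 than in TC-71. The other core genes share none, and lay between 2.015-fold lower (PSMA5) and 1.40-fold higher (PSMB4) in TC-32. Among the members, TAP2 shares 19.5% with its own strand, while PSMB8 shares bases with the opposite strand only (17.3%). HLA-B shares 32.7% with its own strand, and its log2 difference between TC-32 and TC-71 was only 0.58. Members that share none also differed between TC-32 and TC-71. NLRC5, B2M and HLA-C read 22.4-fold, 2.96-fold and 1.63-fold higher in TC-32, and HLA-E 1.74-fold lower. The part of shared exon bases in the gaps of the members was not tested. With libraries scaled by total count alone, the median of all genes moved from 0.00 to -0.37 between TC-32 and TC-71 and from 0.06 to -0.27 between A673 and TC-71, and the share of higher calls from 50.5% to 35.8% and from 52.2% to 40.6%. HLA-B between TC-32 and TC-71 then went from 0.58 to 0.20 and HLA-C from 0.71 to 0.32. TAP2 between TC-32 and A673 (0.15, adjusted p = 0.00818 by edgeR) was lost with no filter on low counts (0.05, adjusted p = 0.571 by edgeR), and so was TAP1 between A673 and TC-71 (-0.27, adjusted p = 0.000312 by edgeR), at -0.11 (adjusted p = 0.166 by edgeR).

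Levels were compared between genes only per length, as counts per base of exon scaled to the same total in each library. In TC-32 the siNeg order was B2M (731 ± 35.2, SD, n = 3), HLA-B (125 ± 7.16), HLA-C (107 ± 4.45), HLA-E (84.0 ± 2.24), PSMB8 (27.2 ± 0.663), TAP1 (26.5 ± 1.64), TAP2 (17.8 ± 0.476), PSMB9 (4.47 ± 0.228) and NLRC5 (4.41 ± 0.255). PSMB8 and TAP1 overlapped, as did PSMB9 and NLRC5, and all other neighbours were apart in every library. In TC-71 the order began with B2M (306 ± 16.8), HLA-E (180 ± 4.72), HLA-B (103 ± 2.28) and HLA-C (81.1 ± 3.73), and ended with PSMB8 (1.28 ± 0.281), PSMB9 (0.772 ± 0.231) and NLRC5 (0.243 ± 0.0196), with no neighbours overlapping. In A673 it began with B2M (1256 ± 8.93), HLA-C (139 ± 3.12) and HLA-E (58.2 ± 1.78), and HLA-B ranked 7 of 9 (4.31 ± 0.275), again with no neighbours overlapping. With the length of the canonical transcript in place of all exons, HLA-B (199 ± 3.43) stood above HLA-E (133 ± 2.79) in TC-71, and PSMB8 (24.8 ± 0.284) above TAP2 (20.8 ± 0.252) in A673, so these places rest on the length used. B2M led in each line, and the place of HLA-B changed most between lines.

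**Figure D4:**
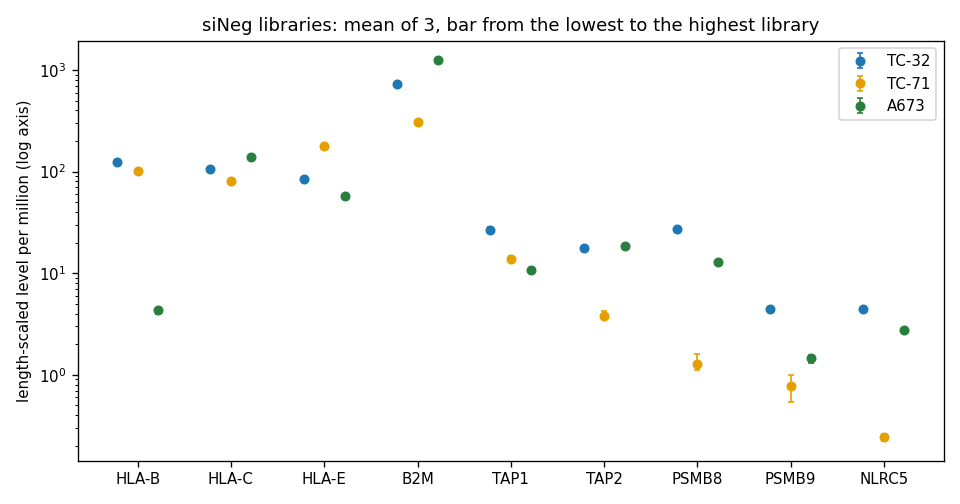
Level per exon length in siNeg libraries (y axis, log scale) of the 9 members (x axis) in 3 lines, as the mean of 3 libraries with a bar from the lowest to the highest. HLA-B of A673, at 4.31, lies far under TC-32 (125) and TC-71 (103).

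The rest of the pathway was described from lists chosen from general knowledge. Their counts are to be read against the share of all genes tested that was called, 41.3% higher and 40.1% lower in TC-32, 36.8% and 35% in TC-71, and 35.6% and 35.4% in A673. Among 11 genes of peptide loading and trimming, 8 rose and 2 fell in TC-32, 8 rose and 2 fell in TC-71, and 6 rose and 3 fell in A673. TAPBP, the tapasin that bridges the transporter and the empty heavy chain, rose in each line, by 1.80 in TC-32 (109 ± 3.20 to 379 ± 19.9 CPM), 0.22 in TC-71 and 0.54 in A673 as log2 fold changes (adjusted p = 3.78e-21, 7.01e-05 and 5.94e-09 by edgeR). PDIA3 and HSPA5, chaperones of the endoplasmic reticulum, and the peptidases ERAP2 and LNPEP also rose in each line, while the cytosolic peptidases THOP1 and NRDC fell in each. ERAP1, the main trimming enzyme of the endoplasmic reticulum, rose in TC-32 (0.54) and TC-71 (1.03) and fell in A673 (by 0.45). Of the class I-like genes, MR1, which presents vitamin B metabolites, rose in each line, by 2.51, 1.24 and 0.97, and FCGRT, the neonatal Fc receptor that also binds beta-2-microglobulin, rose in TC-32 (0.94) and fell in TC-71 (by 1.32) and A673 (by 1.06). HLA-F rose in TC-32 by 2.69, from 1.08 ± 0.291 to 7.04 ± 0.330 CPM. PSMB10, the remaining immunoproteasome subunit, rose in each line, by 0.89, 2.72 and 0.45, and in TC-71 it held 3 to 7 counts per library under siNeg. PSMB10 shares 39.4% of its exon bases with another gene of its own strand, and the part of this in its values was not tested. The subunits of the proteasome activators did not follow it in TC-32, where PSME1, PSME2 and PSME3 fell by 0.37, 0.58 and 1.29. In TC-71 PSME1 and PSME2 rose by 0.36 and 0.20 and PSME3 fell by 0.24, and in A673 none of these passed the test (log2 fold changes 0.01, -0.05 and -0.01).

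Among the regulators of class I transcription, IRF1, an interferon-induced activator, rose in each line, with means of 5.96 ± 0.166 and 55.8 ± 2.38 CPM in TC-32, 2.44 ± 0.606 and 12.2 ± 1.23 CPM in TC-71, and 5.73 ± 0.213 and 32.5 ± 1.40 CPM in A673 (log2 fold changes 3.23, 2.34 and 2.50, adjusted p = 5.86e-22, 9.58e-15 and 6.93e-16 by edgeR). IRF1 overlaps opposite-strand genes over 22.9% of its exon bases. Of 15 regulators tested, 7 rose and 7 fell in TC-32, 6 rose and 7 fell in TC-71, and 6 rose and 9 fell in A673, a split in both directions like that of all genes tested. NFKB1, a subunit of NF-kappaB, rose by 2.21, 0.65 and 1.35, and EZH2, the methyltransferase of the polycomb repressive complex, fell by 2.37, 1.24 and 1.16 together with its partners EED and SUZ12. RFXAP, a subunit of the complex on the X box, fell in each line as well. CIITA, the class II transactivator related to NLRC5, held at most 9 counts in any library and was not tested.

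Interferon signalling genes were mostly higher after depletion. Of 12, 9 rose in each line, while 3 of TC-32, 3 of TC-71 and 1 of A673 fell. STAT2 rose by 2.48, 1.53 and 0.63 and its partner IRF9 by 2.13, 1.09 and 0.59 on the log2 scale. SOCS1, the feedback inhibitor of the pathway, rose by 4.28 in TC-71 and 2.77 in A673 and from 0.825 ± 0.0898 to 17.3 ± 2.63 CPM in TC-32, and the kinase JAK1 fell in each line. Under siNeg SOCS1 was 7.81-fold higher in TC-32 than in TC-71, so its TC-71 fold change rests on few siNeg counts. Of 16 interferon-stimulated genes, 14 rose in TC-32 and 11 in A673, where 4 fell. In TC-71, 12 were tested, of which 8 rose and 2 fell. Their median log2 fold changes were 2.11 (TC-32), 0.88 (TC-71) and 0.67 (A673), and GBP1, an interferon-induced GTPase, rose by 3.06, 2.98 and 1.29.

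**Figure D5:**
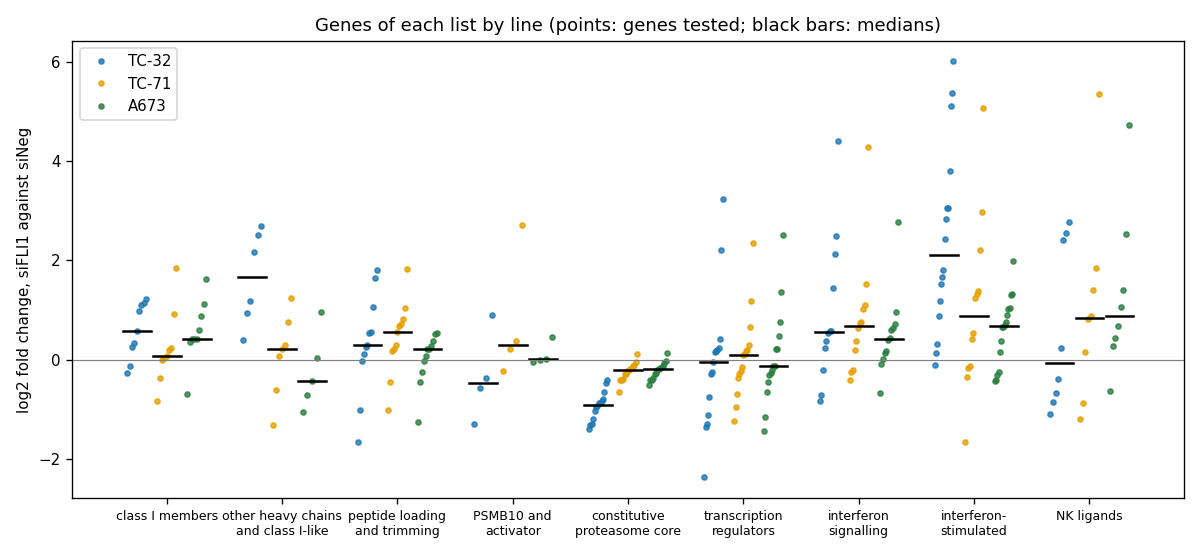
Log2 fold change of siFLI1 against siNeg (y axis) of the genes of each list (x axis) by line, with the median of each list. The constitutive proteasome core has medians of -0.91, -0.22 and -0.19 and the interferon-stimulated genes of 2.11, 0.88 and 0.67 in TC-32, TC-71 and A673.

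Class II genes differed by line. In each group 5 of 9 held at most 3 counts in every library, in all groups HLA-DRA, HLA-DRB1, HLA-DQA1 and HLA-DQB1 among them. The summed level of the 9 was 5.50 to 7.66 CPM under siNeg and 12.6 to 15.7 under siFLI1 in TC-32, 23.2 to 25.4 and 17.9 to 19.1 in TC-71, and 3.89 to 4.52 and 1.63 to 1.68 in A673. In TC-71 2 of 4 tested fell and in A673 3 of 4 fell and 1 rose. HLA-DPB1, a beta chain of HLA-DP, fell by 1.86 in TC-71 and 2.17 in A673, and HLA-DMB, a chain of the HLA-DM peptide exchanger, by 1.70 and 2.17. HLA-DPA1, at 13.9 ± 1.02 CPM in TC-71 under siNeg, did not pass the test there (log2 fold change -0.14). In TC-32 2 of 3 tested rose, HLA-DMA by 1.65 and the invariant chain CD74, which went from 1 to 4 counts per library under siNeg to 168 to 239 under siFLI1 (fitted log2 fold change 6.30, which rests on few siNeg counts, adjusted p = 4.73e-16 by edgeR). Among ligands read by natural killer and T cells, CD274, which encodes PD-L1, rose in each line, by 2.77, 5.34 and 4.72 (adjusted p = 3.24e-08, 5.86e-21 and 5.78e-17 by edgeR), to 1.95 ± 0.254, 12.1 ± 0.598 and 21.3 ± 1.21 CPM. In TC-32 and TC-71 these fold changes of CD274 rest on few siNeg counts. ULBP2, ULBP3 and NECTIN2 rose and ULBP1 fell in each line, and of the 8 ligands 4 rose and 4 fell in TC-32, 6 rose and 2 fell in TC-71, and 7 rose and 1 fell in A673.

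The members did not share 1 pattern over the 18 libraries. Pearson correlations of log2 CPM between members ran from -0.72 for HLA-E with B2M to 0.97 for PSMB8 with NLRC5. TAP1 and PSMB9, which start 487 bases apart, correlated at 0.93, and TAP1 and TAP2 at 0.41. Over 12131 genes searched, those most like HLA-B were EPB41L1 (0.990), WNK4 (0.988) and LYPD1 (0.986). Those most like TAP1 were LMO4, NBPF15 and GUK1 (0.983 to 0.989), and those most like B2M were KIAA1462, CHN2 and ZNF512 (0.987 to 0.992). The points share a line, a siRNA and a table, so these values are descriptions.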

How the data were processed

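Messenger RNA libraries of the 3 lines were made with a stranded kit, per the labels' protocols. The authors deposited expected counts for TC-32 and A673, which the table names attribute to RSEM, and counts for TC-71, attributed to Subread. The submitters' processing notes name cutadapt 4.4, STAR 2.7.3, featureCounts, Subread 2.0.3, limma 3.38.3 and GRCh38. Neither the annotation release nor the strand setting is given in the sources used here. The line of the TC-32 and TC-71 columns rests on the table name.

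Expected counts were rounded. Each line was fitted alone in R 4.3.3 with edgeR 4.0.16 (filterByExpr, TMM, robust quasi-likelihood F-test), and differences between lines in 1 model of all 18 libraries, with genes matched by identifier. Benjamini-Hochberg adjustment ran over all genes tested, and calls were made under 0.05. CPM are TMM-scaled within a line. Log2 fold changes use a prior count of 0.125. Total counts of 19685354 to 120993595 per library set the precision. Positions, lengths and exon overlaps came from GENCODE release 44, read with Python 3.11. Levels per length divide counts by the union of exons. Likeness used log2 CPM with a prior count of 2, among genes with a mean of at least 1.

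The members and the 12 lists were chosen with earlier results of these data known. Named genes are the members, list genes called in all 3 lines in 1 direction, the 2 largest per line and list, and IRF1, TAPBP, PSMB5, PSMB6, PSMB7, PSMB10, FLI1 and the cell type markers. A selection of these is printed, and some genes of the rule are not reported here. Alternatives were DESeq2 1.42.0, limma-voom (limma 3.58.1), scaling by RLE factors or by library size alone, a low-count filter at a mean of 10 or none, unrounded expected counts, a replicate block, each library left out, both lines of a pair alone, an added 2-fold threshold and other length scalings. The fits were checked on simulated data with 200 of 15945 to 19214 genes tested changed 2-fold, drawn above a set expected count. Between 91% and 97.5% were recovered, and between 3.48% and 7.07% of calls were false. In the data themselves 51.6% to 85.8% of genes were called. The simulation therefore did not check the scaling under such broad change, nor genes at low counts.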

Additional observations from a re-analysis of the deposited data

Results flagged for a closer look

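These results stood out because the response to siFLI1 differed between lines by the interaction test, and all values are differences of log2 fold changes. Between TC-32 and A673 the response of HLA-B differed by -0.49, HLA-C by 0.18, HLA-E by 0.58, B2M by 0.59, TAP1 by 0.30, TAP2 by -0.59, PSMB9 by 0.65 and NLRC5 by -0.84. Between TC-32 and TC-71 it differed by 1.48 for HLA-B, 0.50 for HLA-C, 0.97 for HLA-E, -0.16 for B2M, 0.94 for TAP1, 0.56 for TAP2, -0.59 for PSMB8, 0.99 for PSMB9 and -1.60 for NLRC5. Between A673 and TC-71 it differed by 1.97 for HLA-B, 0.32 for HLA-C, 0.39 for HLA-E, -0.75 for B2M, 0.64 for TAP1, 1.15 for TAP2, -0.54 for PSMB8 and -0.76 for NLRC5. TC-71 was counted by another tool than the other lines, and that part of the differences was not tested.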

How the results depend on the processing

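Of 1512 member values under the alternatives, 1475 kept their direction and side of the threshold, 33 kept the direction but were no longer past it, and 4 changed sign. The 4 had not passed the test to begin with: B2M in TC-71 (from -0.0418 to 0.0662 as each library was left out), HLA-E in TC-71 (from -0.0271 to 0.0155) and PSMB8 between TC-32 and A673 (0.0715 with library size alone). Requiring 2-fold as well left 2 members called in A673, 1 in TC-71 and 3 in TC-32 (4268, 4006 and 6095 genes). For the response it left 0 of the members for TC-32 minus A673, 2 for TC-32 minus TC-71 and 2 for A673 minus TC-71 (5362, 4009 and 3311 genes). At baseline it left 4 members between TC-32 and A673, with 6714, 8922 and 9833 genes in the same order of pairs. The same requirement dropped HLA-B, HLA-C and HLA-E between TC-32 and TC-71, and HLA-C, TAP1 and PSMB9 between A673 and TC-71. The baseline order changed for 6 members in A673, 2 in TC-71 and 4 in TC-32 when length was ignored, and for 2 members each in TC-71 and A673 with the length of the canonical transcript, an alternative chosen after seeing the data. With library size alone, the median of all genes in A673 moved from -0.01 to -0.11 and the share of higher calls from 50.1% to 40.9%. Between lines, that setting moved the median response of all genes from 0.01 to 0.13 for TC-32 minus A673 and the median for A673 minus TC-71 from -0.07 to -0.13. For TC-32 minus TC-71 the median went from -0.11, with 39.0% of calls higher, to -0.05, with 43.5% higher. The planned sum of HLA heavy chain rows is not reported here.

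Libraries with the same replicate number did not deviate together (correlations from -0.08 to 0.04), and 3 of 9 siNeg libraries were closest to their own number. With the replicate block, siFLI1 against siNeg in TC-32 called 9 members among 13053 genes, siFLI1 against siNeg in TC-71 called 5 among 12048, and siFLI1 against siNeg in A673 called 9 among 12468. The block ended the calls of HLA-C between TC-32 and A673 (adjusted p = 0.0666), B2M between TC-32 and TC-71 (adjusted p = 0.0786) and, at baseline, TAP2 between TC-32 and A673 (adjusted p = 0.0920). Depth limits PSMB9, PSMB8 and NLRC5 in TC-71 most, where siNeg libraries held 11 to 47 counts.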
